A study of Mus musculus with 64 samples.

Results

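The tricarboxylic acid (TCA) cycle was followed through 9 genes of its mitochondrial enzymes, Cs, Idh3a, Idh3b, Idh3g, Ogdh, Sucla2, Suclg1, Fh1 and Mdh2, in mouse gastrocnemius muscle. The genes were taken by name, with earlier results of these data known, from the 55401 gene identifiers counted in the muscle RNA. All 9 were counted in every library used and all 9 passed the filter on low counts, which kept 15241 genes.

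The TCA cycle oxidizes acetyl-CoA in the mitochondrial matrix and passes the electrons to the respiratory chain as NADH and reduced flavin. Citrate synthase joins acetyl-CoA to oxaloacetate, isocitrate dehydrogenase 3 and the oxoglutarate dehydrogenase complex carry out oxidative decarboxylations, succinyl-CoA ligase makes a nucleoside triphosphate, and fumarase and malate dehydrogenase restore oxaloacetate. Skeletal muscle relies on the cycle during aerobic exercise, and citrate synthase activity is a common marker of its mitochondrial content.

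RNA was sequenced from the gastrocnemius of 64 mice, 8 in each of 8 groups that combined genotype, time of day and treatment, with 4 males and 4 females per group. All mice were 12 to 18 weeks old, on a C57BL/6JBomTac background, and homozygous for a floxed Hif1a allele in which loxP sites flank exon 2. HIF1α KO mice were also heterozygous for a Cre transgene driven by the human α-skeletal actin promoter, which is active in skeletal muscle fibers, so the other cells of the muscle keep the allele. The fl/fl littermates, labelled wt, lacked Cre. No mice without floxed alleles and none with Cre alone were analysed here, so an effect of the Cre transgene itself cannot be told apart from that of the deletion. Mice ran on a treadmill for 60 min (16 m/min, 5% incline) or were sham treated (sed), at zeitgeber time (ZT) 3 in the rest phase or ZT15 in the active phase, and muscle was taken 3 h later. The library of 1 exercised HIF1α KO mouse at ZT3 (mouse 44) held 382 counts and was left out, which left 31 HIF1α KO and 32 fl/fl libraries.

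Total counts in the 63 libraries ranged from 2359780 to 40377963, with a median of 16236352, and each member had at least 404 counts in each library. Values are given as CPM, the counts of a gene per 1000000 counts of its library after TMM scaling. The fast-fiber myosin gene Myh4 averaged 62391 CPM. Hif1a itself averaged 36.4 CPM in HIF1α KO mice (SD 4.8, n = 31) and 36.4 CPM in the littermates (SD 6.31, n = 32), with an edgeR log2 ratio of 0.00 (adjusted p = 0.979 by edgeR). A count over the whole gene spans far more than the floxed exon and all cells of the tissue, so it does not check the deletion.

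Levels between genes were compared per kilobase of annotated exon. On this scale (CPM per kb, mean ± SD over 63 libraries) Sucla2 was at 112 ± 19.8 and Idh3b at 109 ± 17.9. Cs followed at 80.6 ± 11, Ogdh at 78.1 ± 20.2, Idh3g at 76.9 ± 14.4 and Idh3a at 70.2 ± 8.68. The lowest were Mdh2 at 56.7 ± 12.5, Fh1 at 49.9 ± 9.32 and Suclg1 at 37.9 ± 4.06. Each gene lay within 1 SD of its neighbours in this order except across the steps from Idh3b to Cs, from Idh3a to Mdh2 and from Fh1 to Suclg1, and the order depends on which exons were annotated. The spread over libraries also differed between genes, with a coefficient of variation of 10.7% for Suclg1 and 25.9% for Ogdh, whose highest library held 3.78 times the level of its lowest.

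The promoters of succinyl-CoA ligase (Suclg1 and Sucla2), fumarase (Fh1) and malate dehydrogenase (Mdh2) are shown because the first 3 of these genes differed between the genotypes while no difference was detected for the step after them. Each line gives the 250 bases before the RefSeq start on GRCm38.p6, 5′ to 3′ along the gene, with matches to the searched motifs in capitals. The RefSeq starts of Sucla2, Suclg1 and Mdh2 lie inside the longer spans that GENCODE gives these genes. All of the window of Sucla2 and part of those of Suclg1 and Mdh2 are thus within the annotated gene. The windows are chr6:73248255-73248504 (plus strand), chr14:73552536-73552785 (plus strand), chr1:175625636-175625885 (minus strand) and chr5:135778399-135778648 (plus strand).
Suclg1: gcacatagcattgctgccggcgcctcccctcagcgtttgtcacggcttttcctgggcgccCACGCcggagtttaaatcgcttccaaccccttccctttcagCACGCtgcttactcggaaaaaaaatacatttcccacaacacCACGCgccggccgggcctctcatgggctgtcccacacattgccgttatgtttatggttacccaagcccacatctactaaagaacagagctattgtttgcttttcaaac
Sucla2: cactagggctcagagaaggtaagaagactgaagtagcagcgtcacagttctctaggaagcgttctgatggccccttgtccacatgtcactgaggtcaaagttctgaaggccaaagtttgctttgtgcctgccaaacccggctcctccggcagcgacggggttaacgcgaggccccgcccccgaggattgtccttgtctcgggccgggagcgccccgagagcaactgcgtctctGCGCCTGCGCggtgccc
Fh1: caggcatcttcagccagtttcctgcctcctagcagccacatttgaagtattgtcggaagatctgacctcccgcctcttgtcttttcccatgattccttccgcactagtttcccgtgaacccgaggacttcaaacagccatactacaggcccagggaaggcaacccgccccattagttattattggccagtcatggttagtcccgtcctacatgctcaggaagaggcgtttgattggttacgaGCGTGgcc
Mdh2: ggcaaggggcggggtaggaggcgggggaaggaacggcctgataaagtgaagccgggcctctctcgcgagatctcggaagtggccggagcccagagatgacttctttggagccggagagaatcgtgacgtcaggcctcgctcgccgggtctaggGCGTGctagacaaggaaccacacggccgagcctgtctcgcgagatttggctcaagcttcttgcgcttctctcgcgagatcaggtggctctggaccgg
The motifs searched on both strands were the hypoxia response core as ACGTG or GCGTG, the E-box CACGTG (which contains ACGTG), the estrogen-related receptor half-site AAGGTCA, the palindromic NRF1 site and the ETS site CCGGAAG. The 8 genes with an entry had 13 windows, 6 of them for the starts of Ogdh and 1 for each other gene. Some windows of Ogdh overlap, so the same site was counted in more than 1 of them. By gene, GCGTG was in 5 of the 8, ACGTG in 2 and CACGTG in 1. GCGTG was in 8 of the 13 windows, 4 of them from Ogdh and 1 each from Fh1, Idh3g, Mdh2 and Suclg1, against 28.2% of 32851 single windows of the same length. Suclg1 held 3 copies on the opposite strand, with their first bases 190, 149 and 108 bases before the start, Mdh2 held 1 at 97 bases, and Fh1 held 1 at 8 bases. ACGTG was in 7 windows, all 6 of Ogdh and that of Idh3g, against 16.6% of all windows, and CACGTG was in 3 windows of Ogdh, against 6.02%. The NRF1 site was found in Sucla2, 17 bases before the start, against 3.74% of windows, and the ETS site in Idh3g, against 6.91%. AAGGTCA was in none of the members' windows and in 4.08% of all windows. The genes with GCGTG were Suclg1, Fh1 and Idh3g, which differed between genotypes, and Mdh2 and Ogdh, for which no difference was detected.

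The first comparison asked whether loss of HIF1α in muscle fibers was accompanied by other levels of these mRNAs, taken as the mean over both treatments and both times of day. The quasi-likelihood test of edgeR was fitted to group and sex, p-values were adjusted over all 15241 genes by the method of Benjamini and Hochberg, and genes with an adjusted p under 0.1 were called. Differences are given as the fitted log2 ratio of HIF1α KO to fl/fl with its SE. Of the 9 members, 5 were higher in HIF1α KO mice (Idh3b, Idh3g, Sucla2, Suclg1 and Fh1) and 0 were lower, against 4.68% and 3.58% of all genes tested. The 5 differences were small, from 10.2% for Suclg1 to 15.4% for Fh1. The median fitted log2 ratio was 0.14 over the members and -0.00277 over all genes. In RNA of the whole muscle, fewer cells of a type and less RNA per cell cannot be told apart.

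**Figure D1:**
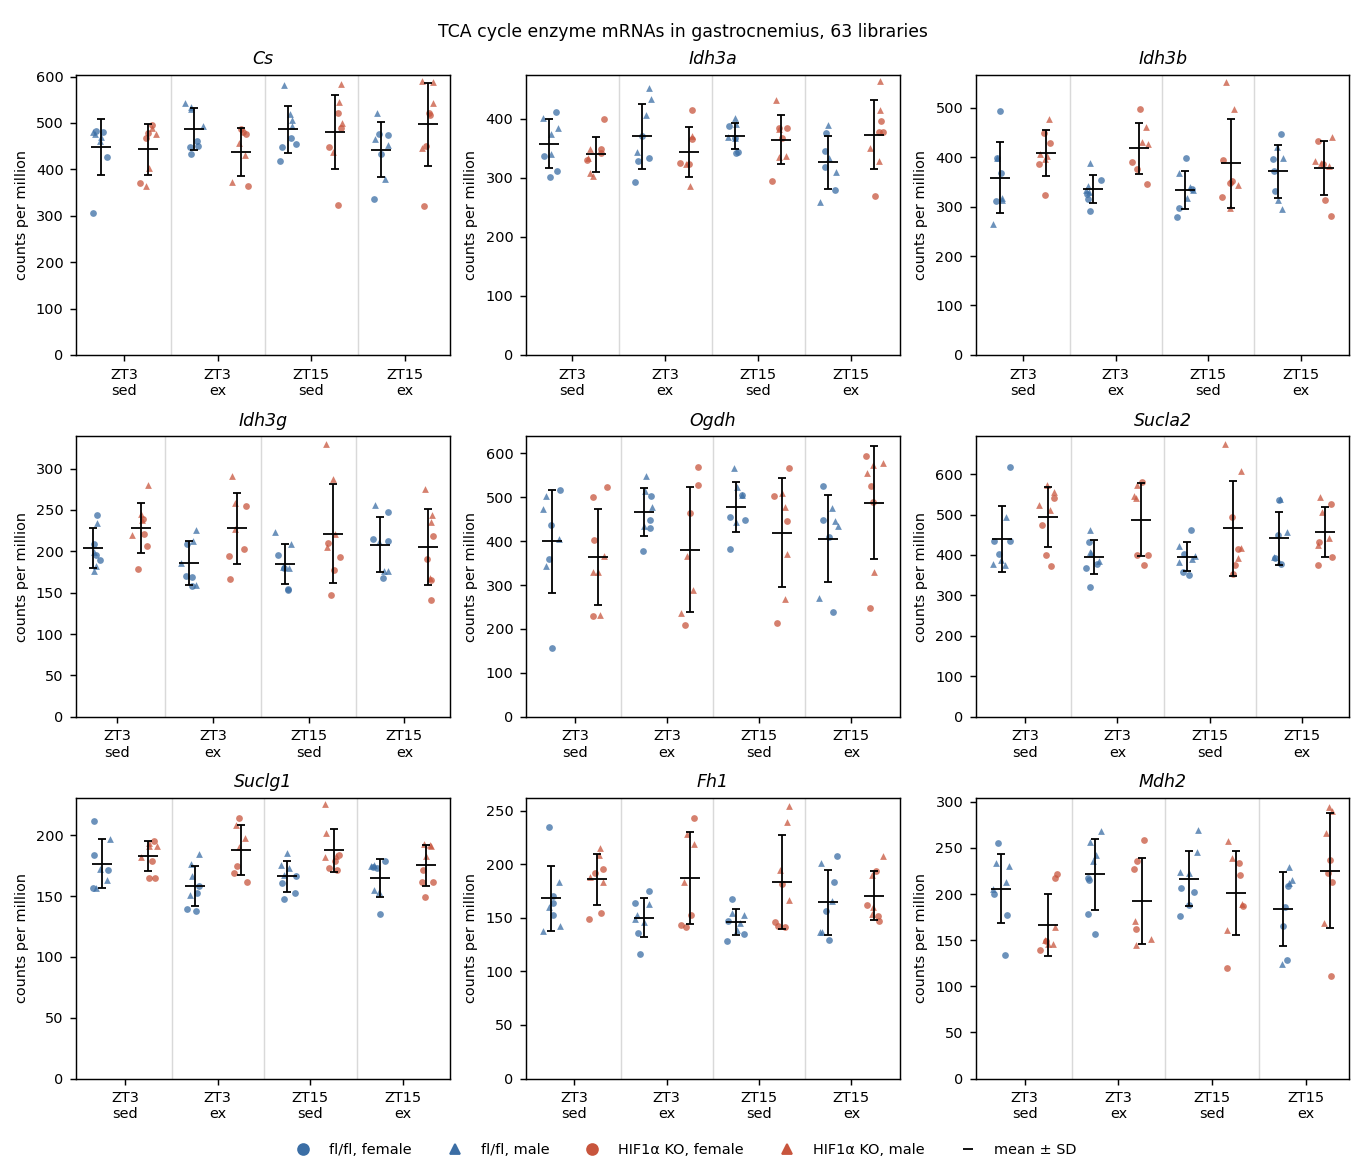
Level of each TCA cycle gene in every library (points, CPM, axes from 0) by time of day and treatment, fl/fl mice in blue and HIF1α KO mice in red, circles for females and triangles for males, with the mean and SD of each group in black. Points of both genotypes overlap in each panel, and the red means of Suclg1 and Fh1 lie above the blue ones in all 4 combinations.

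Cs encodes citrate synthase, the entry step (ENSMUSG00000005683.8, chromosome 10 from 128337734 to 128362479 on the plus strand of GRCm38). The lowest, median and highest libraries were at 321, 476 and 590.3 CPM in HIF1α KO and 307, 468 and 582 CPM in fl/fl mice. The genotypes overlapped over nearly their whole range. The fitted log2 ratio was 0.00 ± 0.049 (SE, adjusted p = 0.993), with a 95% interval from -0.10 to 0.10.

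Isocitrate dehydrogenase 3 is built from a catalytic α subunit (Idh3a) and the β (Idh3b) and γ (Idh3g) subunits that complete and regulate it. Idh3a (ENSMUSG00000032279.11, chromosome 9 from 54586334 to 54604661 on the plus strand) had its lowest, median and highest libraries at 269.6, 349 and 465 CPM in HIF1α KO and 259, 356 and 452 CPM in fl/fl mice, and a fitted log2 ratio of -0.00 ± 0.0452 (SE, adjusted p = 0.991). Idh3b (ENSMUSG00000027406.13, chromosome 2 from 130279309 to 130284547 on the minus strand) was at 281, 393 and 553 CPM in HIF1α KO and 265, 334 and 493 CPM in fl/fl mice, and its fitted log2 ratio was 0.19 ± 0.0542 (SE, adjusted p = 0.0314). Idh3g (ENSMUSG00000002010.17, chromosome X from 73778963 to 73786897 on the minus strand) was at 141, 220.1 and 329 CPM in HIF1α KO and 153, 192 and 256 CPM in fl/fl mice, with a fitted log2 ratio of 0.17 ± 0.057 (SE, adjusted p = 0.0749). Idh3b and Idh3g were thus called higher in HIF1α KO muscle while Idh3a was not, its interval running from -0.09 to 0.09. Whether the genotype difference itself differed between the subunit genes was not tested. In all 3 genes the ranges of the genotypes overlapped, with the highest libraries of Idh3b and Idh3g among the HIF1α KO mice. Idh3b shares 5 exonic bases with Nop56 on the other strand.

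Ogdh encodes the E1 subunit of the oxoglutarate dehydrogenase complex (ENSMUSG00000020456.17, chromosome 11 from 6291633 to 6356642 on the plus strand). Its lowest, median and highest libraries were at 209, 446 and 594 CPM in HIF1α KO and 157, 448 and 566 CPM in fl/fl mice. The fitted log2 ratio was -0.09 ± 0.103 (SE, adjusted p = 0.664). The ranges overlapped, and the lowest library of all came from a fl/fl mouse. The 95% interval from -0.30 to 0.11 was the widest of the 9.

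Succinyl-CoA ligase pairs a common α subunit (Suclg1) with an ATP-forming β subunit (Sucla2) or a GTP-forming one (Suclg2). Sucla2 (ENSMUSG00000022110.13, chromosome 14 from 73525319 to 73596142 on the plus strand) was at 353, 473 and 676 CPM in the lowest, median and highest HIF1α KO libraries and 321, 400.0 and 618 CPM in those of fl/fl mice. Its fitted log2 ratio was 0.18 ± 0.0555 (SE, adjusted p = 0.0381). The median HIF1α KO library lay above the median fl/fl library, but the ranges overlapped. Suclg1 (ENSMUSG00000052738.14, chromosome 6 from 73248382 to 73276911 on the plus strand) was at 149.6, 183 and 226 CPM in HIF1α KO and 135, 167 and 212 CPM in fl/fl mice, and its fitted log2 ratio was 0.14 ± 0.0342 (SE, adjusted p = 0.00739). It had the narrowest spread of the 9 genes and the lowest adjusted p, the HIF1α KO mice averaging 183 CPM (SD 16.9, n = 31) and their littermates 167 CPM (SD 16.9, n = 32).

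Fumarase is encoded by Fh1 (ENSMUSG00000026526.14, chromosome 1 from 175600374 to 175625635 on the minus strand), which was at 141, 183 and 255 CPM in the lowest, median and highest HIF1α KO libraries and 116, 153 and 234 CPM in those of fl/fl mice. Its fitted log2 ratio of 0.21 ± 0.0584 (SE, adjusted p = 0.0251) was the largest of the 9. The lowest and the highest fl/fl libraries lay below the lowest and the highest HIF1α KO libraries, with a broad overlap between. Mdh2, which encodes the malate dehydrogenase of the matrix (ENSMUSG00000019179.10, chromosome 5 from 135778480 to 135790398 on the plus strand), was at 111, 189 and 295 CPM in HIF1α KO and 125, 212 and 269 CPM in fl/fl mice. The fitted log2 ratio of Mdh2 was -0.07 ± 0.0767 (SE, adjusted p = 0.648). Its HIF1α KO libraries spanned a wider range at both ends than the fl/fl libraries.

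The genotype calls were then examined against features of the libraries. The labels number the mice from 1 to 64 but name no batch, although the libraries of mice 1 to 16, 17 to 32, 33 to 48 and 49 to 64 differed in their make-up. In this order, mitochondrial rRNA took a median of 6.55%, 1.84%, 2.67% and 5.13% of the counts. The second block held 6 HIF1α KO and 2 fl/fl males, and 4 females of each genotype. With these 4 blocks as a covariate, 4 members remained differentially expressed, all of them among the 5, against 3.95% of all genes called higher. Their fitted log2 ratios were 0.14 (adjusted p = 0.0309) for Idh3b, 0.13 (adjusted p = 0.0396) for Sucla2, 0.12 (adjusted p = 0.00692) for Suclg1 and 0.15 (adjusted p = 0.0203) for Fh1. Idh3g, at 0.13 (adjusted p = 0.11), did not pass.

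Libraries also differed in how strongly gene level depended on transcript length. The length slope, the coefficient of a library's log2 CPM deviations on log2 transcript length fitted together with GC content over 15217 tested genes other than the members, averaged -0.0174 in HIF1α KO mice and 0.0168 in their littermates, with ranges from -0.17 to 0.104 and from -0.17 to 0.109. Over the 4 blocks, in order of mouse number, the slope averaged 0.0391, -0.0786, -0.000241 and 0.0398, so the block and slope covariates overlap. With the slope as a covariate, 1 of the 9 members was differentially expressed, against 3.86% of all genes called higher. This was Suclg1, at a fitted log2 ratio of 0.09 (adjusted p = 0.0300). The estimates of the other 4 fell to 0.09 for Idh3b, 0.06 for Idh3g, 0.08 for Sucla2 and 0.09 for Fh1, with adjusted p between 0.139 and 0.468. With slopes on both length and GC content, 3 members passed (Sucla2, Suclg1 and Fh1, at 0.12, 0.10 and 0.10), against 2.41%. The slope was estimated from the same libraries, so a genotype difference that itself follows length would be removed with it, and what moved the slope was not tested.

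**Figure D2:**
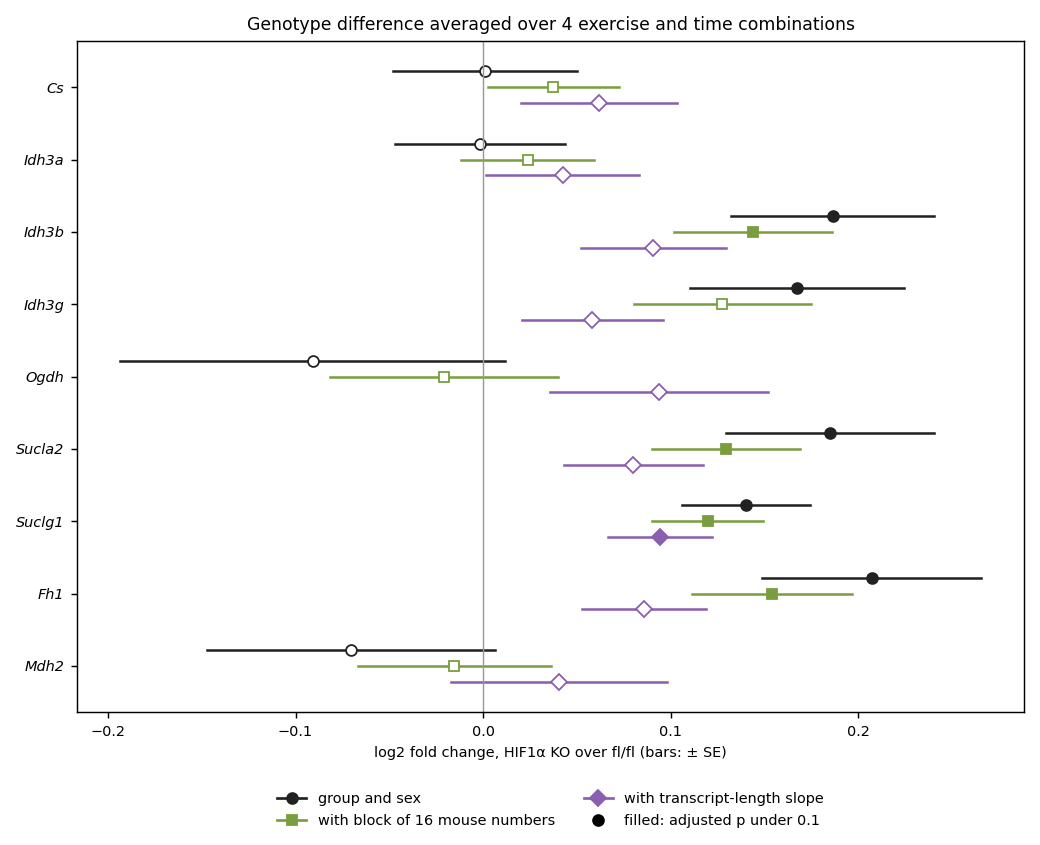
Log2 fold change of each gene between HIF1α KO and fl/fl mice, averaged over the 4 combinations (horizontal axis, bars ± SE), from the model with group and sex (black), with the block of 16 mouse numbers added (green) and with the length slope of the library added (purple), filled where the adjusted p was under 0.1. Suclg1 is filled in all 3 models, and Fh1 moves from 0.21 to 0.15 and 0.09.

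Each member varied with the length slope over the 63 libraries. Pearson's r was -0.86 for Fh1, -0.80 for Sucla2, -0.78 for Idh3g, -0.78 for Idh3b and -0.67 for Suclg1. It was 0.86 for Ogdh, 0.69 for Mdh2, 0.58 for Cs and 0.51 for Idh3a. The 5 genes that were higher in HIF1α KO muscle were thus those that fell as the slope rose, and the other 4 rose with it. Spearman's rho had the same signs, from -0.79 for Fh1 to 0.79 for Ogdh. In permutation tests with 100000 shuffles, adjusted over the 18 relations computed (9 genes with the slope and with the log2 share of counts on mitochondrial rRNA), the adjusted p for r with the slope was at most 5.29e-05 and for rho at most 0.000942. The smallest p that the shuffles can give, 1e-05, was reached by r for 8 of the 9 genes. Without the 2 libraries farthest from the median slope, r lay between -0.84 for Fh1 and 0.82 for Ogdh, and it was smallest in size for Cs and Idh3a, at 0.49 and 0.49. Within the 4 blocks the relation of Fh1 held throughout, with r of -0.53, -0.87, -0.76 and -0.50, and that of Ogdh kept its sign at 0.28, 0.78, 0.74 and 0.36. Idh3g and Suclg1 kept theirs as well, from -0.38 to -0.81 and from -0.33 to -0.78. Those of Cs, Idh3a, Idh3b, Sucla2 and Mdh2 changed sign in at least 1 block, the farthest being Idh3a at -0.66 in the first. The shuffles for the slope ignored the blocks. After removal of group, sex and block, r with the slope was 0.18 for Cs, 0.18 for Idh3a, 0.33 for Mdh2 and 0.66 for Ogdh. For the other 5 genes it then lay between -0.48 for Suclg1 and -0.74 for Fh1. With mitochondrial rRNA, r ran from -0.70 for Fh1 to 0.81 for Mdh2, with the same division of signs over all libraries and an adjusted p of at most 0.00267, from shuffles that ignore the blocks. Within the first block the 5 negative genes all had a positive r with mitochondrial rRNA, from 0.35 for Sucla2 to 0.52 for Idh3g, and after removal of group, sex and block the r of Suclg1 was -0.04. Length divided the members only in part. In the genes that fell with the slope, the longest coding transcript had 1331 (Idh3g), 1519 (Suclg1), 1616 (Idh3b), 2229 (Sucla2) and 2636 bases (Fh1). In those that rose it had 1456 (Mdh2), 2580 (Idh3a), 2926 (Cs) and 4127 bases (Ogdh). Apart from Mdh2 and Fh1, each gene that fell had a shorter transcript than each that rose. Of all genes tested, 29.8% had an r above 0.5 in size with the slope.

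**Figure D3:**
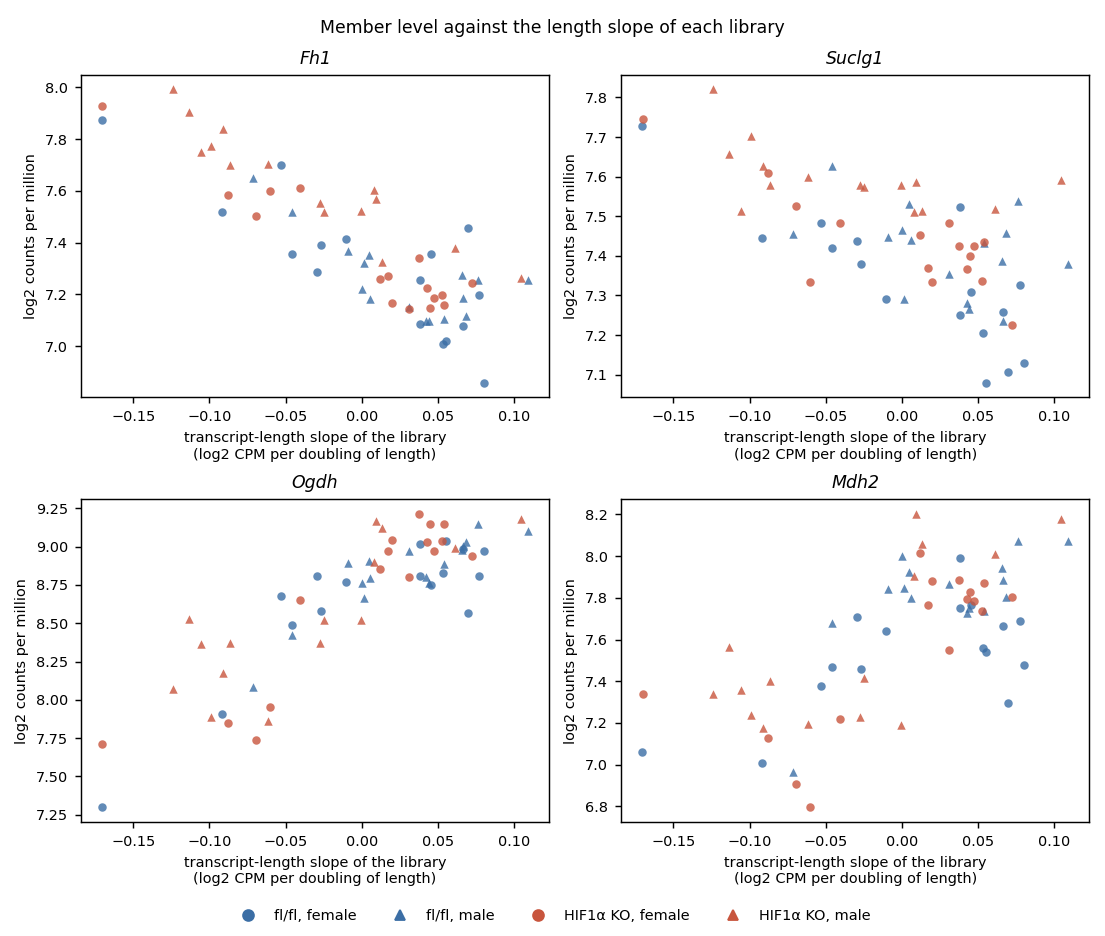
Log2 CPM of Fh1, Suclg1, Ogdh and Mdh2 (vertical axes) against the transcript-length slope of each library (horizontal axes), 1 point per library, coloured by genotype with circles for females and triangles for males. Fh1 and Suclg1 fall and Ogdh and Mdh2 rise with the slope in both genotypes, with r of -0.86, -0.67, 0.86 and 0.69.

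The genotype difference was next taken within each treatment at each time of day, where the 8 or 7 libraries per group gave wider intervals. Suclg1 in exercised mice at ZT3 was the 1 call among 36 tests of members, against 0.873% of genes called higher in that comparison. Its libraries there ran from 161 to 215 CPM (median 191) in HIF1α KO and from 138 to 185 CPM (median 155) in fl/fl mice, which overlap. The fitted log2 ratio was 0.26 ± 0.0703 (SE, adjusted p = 0.0695), and the gene did not pass with the block, at 0.20 (adjusted p = 0.232), or with the length slope, at 0.13 (adjusted p = 0.623). In the same mice Fh1 was at 0.33 ± 0.12 (SE, adjusted p = 0.166), Idh3b at 0.32 ± 0.111 (SE, adjusted p = 0.144), Sucla2 at 0.31 ± 0.114 (SE, adjusted p = 0.166) and Idh3g at 0.30 ± 0.117 (SE, adjusted p = 0.182). None of these passed the threshold, although their estimates were above those of the average. Among sedentary mice the estimates of these 5 genes lay between 0.05 and 0.19 at ZT3 and between 0.18 and 0.32 at ZT15, and edgeR called 0 members, against 0.4% and 0.0459% of all genes. Unadjusted, 0 members at ZT3 and 4 at ZT15 had a p under 0.05. In exercised mice at ZT15 they lay between -0.04 and 0.08, while Mdh2 was at 0.29 ± 0.152 (SE, adjusted p = 0.707) and Ogdh at 0.26 ± 0.203 (SE, adjusted p = 0.843), and again 0 members passed, against 0.4% of all genes. DESeq2 called 1 member in these combinations, Suclg1 in exercised mice at ZT3. The length slope also varied between these groups, with SDs from 0.0372 to 0.0781. After exercise it averaged -0.0441 with the knockout and 0.0517 without it at ZT3, and 0.0177 and -0.0141 at ZT15. For sedentary mice these means were -0.033 and -0.0185 at ZT3, and -0.0133 and 0.0482 at ZT15. The gap between genotypes was thus widest in exercised mice at ZT3 and reversed in those at ZT15. The same groups enter the interaction terms below.

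Whether the genotype difference itself changed with time of day or exercise was tested by interaction terms. In exercised mice the estimates of Ogdh, Mdh2, Cs and Idh3a were 0.57, 0.46, 0.30 and 0.29 (HIF1α KO over fl/fl at ZT15 minus that at ZT3), and those of the other 5 were between -0.34 and -0.18. All 9 had an adjusted p between 0.281 and 0.402, and 4 had an unadjusted p under 0.05 (Cs, Idh3a, Idh3g and Mdh2). In the 7 interaction terms tested, edgeR called 0 of 63 tests of members, 9 of which had an unadjusted p under 0.05, and 0% of all genes. Between 342 and 2861 genes had an unadjusted p under 0.05, and DESeq2 called between 0 and 505 genes and no member.

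**Figure D4:**
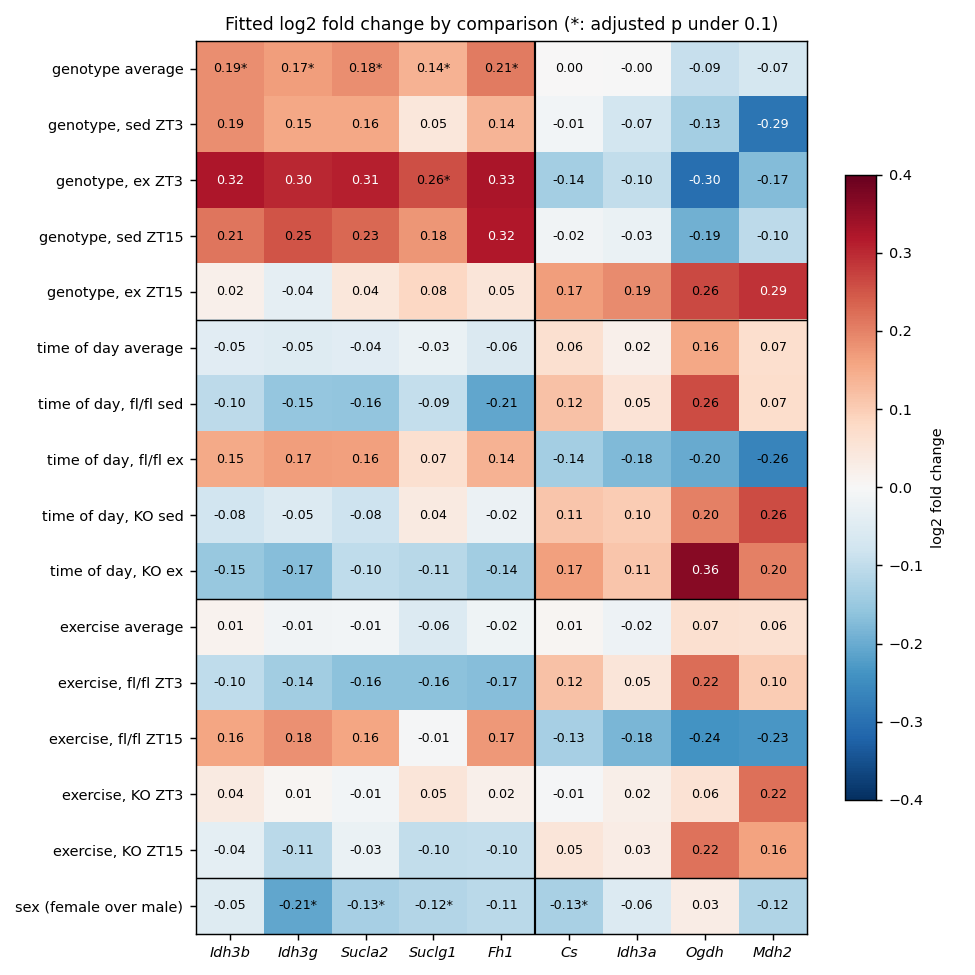
Fitted log2 fold change (colour and printed value) of the 9 genes in 16 comparisons, HIF1α KO over fl/fl, ZT15 over ZT3, exercised over sedentary and female over male, with an asterisk where the adjusted p was under 0.1. Asterisks stand for 5 genes in the genotype average, for Suclg1 in exercised mice at ZT3 and for 4 genes in the sex comparison, and in 9 of the 16 rows the 5 genes left of the vertical line share a sign opposite to that of the 4 right of it.

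Time of day and exercise moved none of the members past the threshold. From ZT3 to ZT15, averaged over genotype and treatment, the fitted log2 ratios ran from -0.06 for Fh1 to 0.16 for Ogdh, with adjusted p between 0.454 and 0.858, while 8.02% of all genes were called. The 95% intervals of the 9 genes lay between -0.18 and 0.36. With the block of mouse numbers, Ogdh passed, higher at ZT15 by 0.17 (adjusted p = 0.0705), against 7.29% of genes called higher. From sedentary to exercised muscle, 3 h after the run, the changes ran from -0.06 for Suclg1 to 0.07 for Ogdh, with adjusted p between 0.604 and 0.99, while 2.84% of all genes were called. These intervals lay between -0.14 and 0.27. Unadjusted, 0 of the 9 members had a p under 0.05 in either comparison, and DESeq2 called none of them. Within single groups, edgeR called 0 of 36 tests of members for time of day and 0 of 36 for exercise, with 0 and 2 of the 36 at an unadjusted p under 0.05. Of all genes, 1.88%, 1.18%, 0.479% and 0.663% were called for time of day in sedentary fl/fl, exercised fl/fl, sedentary HIF1α KO and exercised HIF1α KO mice. For exercise, 0.236% and 0% were called in fl/fl mice at ZT3 and ZT15, and 0.131% and 0.0591% in HIF1α KO mice.

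The group means show how far the members stood apart over the 8 groups. Suclg1 had its lowest mean in exercised fl/fl mice at ZT3, at 158 CPM (SD 16.8, n = 8), and its highest in exercised HIF1α KO mice at ZT3, at 188 CPM (SD 20.3, n = 7). Fh1 was lowest in sedentary fl/fl mice at ZT15, at 146 CPM (SD 12.3, n = 8), and highest in exercised HIF1α KO mice at ZT3, at 187 CPM (SD 42.8, n = 7). Ogdh and Mdh2 had their lowest means in sedentary HIF1α KO mice at ZT3, at 365 CPM (SD 109, n = 8) and 167 CPM (SD 33.5, n = 8), and their highest in exercised HIF1α KO mice at ZT15, at 487 CPM (SD 129, n = 8) and 225 CPM (SD 62.3, n = 8). In each of these 4 genes the lowest and highest groups overlapped in their single libraries. The means of Cs lay between 438 and 497 CPM and those of Idh3a between 326 and 373 CPM.

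Sex was a covariate of the model and gave a further comparison, with ratios of female to male over all groups. Of the 9 members, 4 were lower in females (Cs, Idh3g, Sucla2 and Suclg1) and 0 were higher, against 13.3% of all genes called lower and 11.8% called higher. Idh3g was at 141, 193 and 255 CPM in the lowest, median and highest libraries of females and 159, 220.5 and 329 CPM in those of males, with a fitted log2 ratio of -0.21 ± 0.057 (SE, adjusted p = 0.00488). Suclg1 was at 135, 168 and 215 CPM in females and 151, 183 and 226 CPM in males, with a fitted log2 ratio of -0.12 ± 0.0343 (SE, adjusted p = 0.00892). Cs was at 307, 458 and 522 CPM in females and 363, 488 and 590.3 CPM in males, with a fitted log2 ratio of -0.13 ± 0.0491 (SE, adjusted p = 0.053). The ranges of the sexes overlapped in each of these genes. Sucla2 had a fitted log2 ratio of -0.13 ± 0.0555 (SE, adjusted p = 0.0876). The remaining 5 genes lay between -0.12 for Mdh2 and 0.03 for Ogdh and did not pass. Idh3g lies on the X chromosome and the other 8 do not.

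Markers of fiber and cell types moved with sex as well. All 8 slow-fiber markers were called higher in females, with a median fitted log2 ratio of 0.86 and a summed level from 717 to 4060 CPM in females and 384 to 1886 CPM in males. So were all 6 adipocyte markers, with a median of 0.80 and a summed level from 66 to 402 CPM against 51 to 308 CPM. With the slow-fiber score as a covariate, 5 members were lower in females, against 9.73% of all genes, with Idh3g at -0.32 (adjusted p = 0.000656), Fh1 at -0.18 (adjusted p = 0.094), Sucla2 at -0.18 (adjusted p = 0.0965), Cs at -0.16 (adjusted p = 0.0884) and Suclg1 at -0.11 (adjusted p = 0.0834). With the block or the length slope, 6 members were lower in females, the 4 and also Fh1 and Mdh2, against 15.8% and 17.1% of all genes. All 4 nerve and Schwann cell markers and 2 of 4 fibroblast markers were also higher in females, while 3 of 5 blood markers and 3 of 7 fast-fiber markers were lower. Between genotypes, 0 of 8 slow-fiber and 0 of 7 fast-fiber markers were called, as were 0 of 5 blood, 0 of 6 adipocyte, 0 of 5 endothelial and 0 of the 4 tested immune cell markers. Of the rest, 1 of 4 fibroblast markers was lower in HIF1α KO mice, and 2 of 4 nerve and Schwann cell markers were lower, with a summed level from 29.4 to 133 CPM in HIF1α KO and from 33.6 to 152 CPM in fl/fl mice. With the slow-fiber score as a covariate the same 5 members were called higher in HIF1α KO mice, against 4.88% of all genes. The part of the other cell type markers in the results on the members was not tested.

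The genotype difference was also taken within each sex, a comparison chosen after the data had been seen. In males, 7 of the 9 members were differentially expressed between genotypes, against 14.7% of all genes. Fh1 was at 154, 194 and 255 CPM in the lowest, median and highest HIF1α KO males and 137, 151 and 201 CPM in fl/fl males, with a fitted log2 ratio of 0.37 (adjusted p = 0.00146). Suclg1 was at 182, 191 and 226 CPM in HIF1α KO males and 151, 173 and 197 CPM in fl/fl males, with a fitted log2 ratio of 0.18 (adjusted p = 0.0193). For Fh1 the genotypes overlapped, and for Suclg1 3 of the 16 fl/fl males reached into the range of the HIF1α KO males. Sucla2, Idh3g and Idh3b were higher by 0.33 (adjusted p = 0.00603), 0.32 (adjusted p = 0.017) and 0.30 (adjusted p = 0.0174). Ogdh and Mdh2 were lower, at -0.30 (adjusted p = 0.0632) and -0.26 (adjusted p = 0.0489).

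In females, 0 of the 9 members were differentially expressed, against 0.746% of all genes. Fh1 was at 141, 152 and 243 CPM in HIF1α KO females and 116, 159.8 and 234 CPM in fl/fl females, with a fitted log2 ratio of 0.04 (adjusted p = 0.979). Suclg1 was at 149.6, 172 and 215 CPM and 135, 159 and 212 CPM, with a fitted log2 ratio of 0.10 (adjusted p = 0.775). Both genes overlapped between the genotypes over most of their range. The 9 estimates in females lay between 0.02 for Idh3g and 0.10 for Suclg1. The test of the difference between the sexes did not pass for any member. Its estimates (female minus male) ran from -0.33 for Fh1 to 0.36 for Ogdh, with adjusted p between 0.424 and 0.707, and edgeR called 0.0459% of all genes. Unadjusted, Fh1, Idh3g, Sucla2, Mdh2 and Idh3b had a p under 0.05 among 1712 genes in all.

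The length slope moved with this pattern. It averaged -0.036 in HIF1α KO males and 0.0276 in fl/fl males, but 0.000106 and 0.00598 in HIF1α KO and fl/fl females. Of the 15 HIF1α KO males, 6 were in the second block of mouse numbers, against 2 of the 16 fl/fl males. With the length slope as a covariate, 1 member was called in males, Fh1 at 0.19 (adjusted p = 0.0794), against 1.38% of all genes, and 0 in females. With the block, Fh1 was again the 1 member called in males, at 0.25 (adjusted p = 0.0381), against 2.11% of all genes, and 0 were called in females. In females 2.44% of all genes were called with the slope and 1.36% with the block. The estimate of Fh1 for the difference between the sexes went from -0.33 to -0.17 with the block and -0.14 with the slope, where 0 members and 0.0459% and 0.0328% of all genes were called. Unadjusted, 0 members had a p under 0.05 in that test with the block and 1, Fh1, with the slope.

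**Figure D5:**
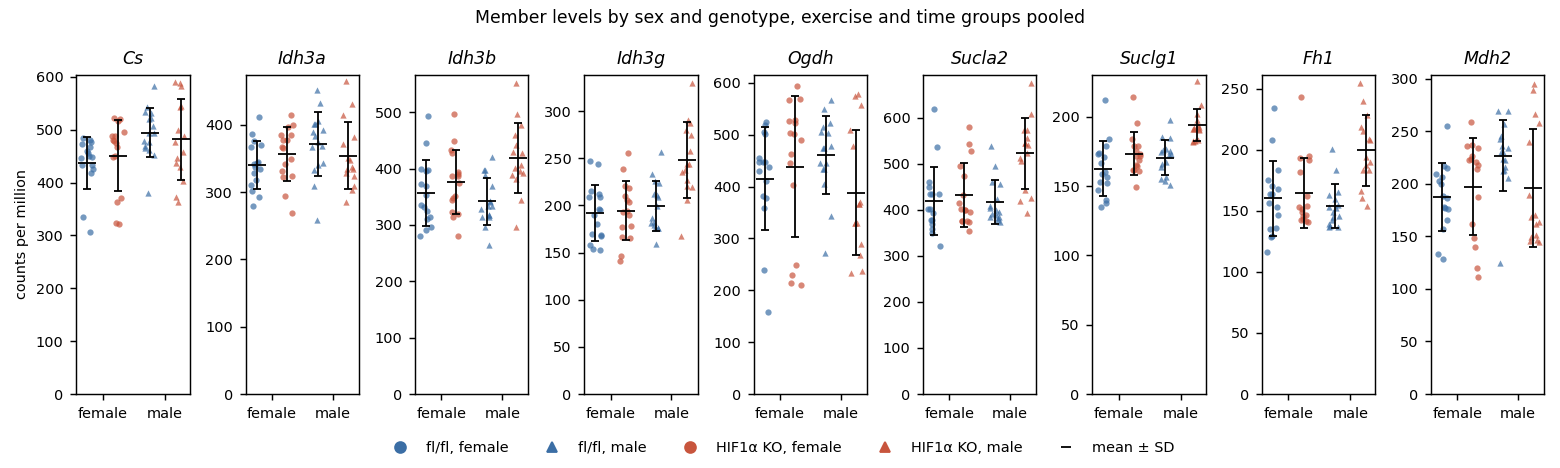
Level of each gene in every library (points, CPM, axes from 0) in females (circles) and males (triangles), fl/fl in blue and HIF1α KO in red, with treatments and times of day pooled and the mean and SD in black. The red means of Idh3b, Idh3g, Sucla2, Suclg1 and Fh1 stand above the blue ones by more in males than in females. For Fh1 they were 199 against 154 CPM in males and 165 against 160 CPM in females.

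Among themselves the 9 genes fell into the set of Idh3b, Idh3g, Sucla2, Suclg1 and Fh1 and the set of Cs, Idh3a, Ogdh and Mdh2, a division made after seeing the values and given as a description. Over the 63 libraries, which share their depth and composition, Pearson's r of log2 CPM lay between 0.71 and 0.91 for the 10 pairs within the first set and between 0.63 and 0.85 for the 6 pairs within the second. It lay between -0.74 and 0.03 for the 20 pairs between them, of which 19 were negative. Once group, sex and block were removed, the r values within the sets of 5 and 4 lay between 0.40 and 0.76 and between 0.42 and 0.73, while those between the sets ran from -0.49 to 0.43 and 9 of the 20 were positive. The division runs through 1 enzyme, since Idh3a is in one set and its partners Idh3b and Idh3g are in the other. The log2 ratio of Idh3a to Idh3b, per kilobase, averaged -0.537 ± 0.308 (SD, n = 32) in fl/fl mice, against -0.721 ± 0.361 (SD, n = 31) in the HIF1α KO group. That of Idh3b to Idh3g was 0.496 ± 0.146 without and 0.521 ± 0.174 with the knockout. The ratio of Suclg1 to Sucla2, the subunits of the ATP-forming ligase, was -1.53 ± 0.152 without and -1.57 ± 0.172 with the knockout. In each of these ratios, that of Idh3a to Idh3b included, the means of the genotypes lay within 1 SD of each other. This SD is the spread of single libraries, not of the means, and whether the ratios differed between genotypes was not tested.

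The other genes of the pathway were read from lists of names. In the genotype average, 4.68% of all genes were called higher in HIF1α KO mice and 3.58% lower. Of 9 other listed genes of the mitochondrial cycle, 3 were higher in HIF1α KO mice in this comparison and 0 were lower. All 3 encode subunits of succinate dehydrogenase, the enzyme shared with the respiratory chain, with fitted log2 ratios of 0.19 (adjusted p = 0.0512) for the iron-sulfur subunit Sdhb, 0.17 (adjusted p = 0.062) for the membrane anchor Sdhc and 0.23 (adjusted p = 0.0338) for the anchor Sdhd. The catalytic subunit Sdha, named here after its values were seen, was at -0.03 (adjusted p = 0.843) and had an r with the length slope of 0.74 against -0.80 for Sdhb, -0.87 for Sdhc and -0.87 for Sdhd. Of the 5 genes by which pyruvate enters (Pdha1, Pdhb, Dlat, Pdhx and Pcx), 3 were higher and 0 lower, namely Dlat, the E2 core of the pyruvate dehydrogenase complex, at 0.18 (adjusted p = 0.0049), the E3-binding protein Pdhx at 0.18 (adjusted p = 0.0543) and the E1β subunit Pdhb at 0.13 (adjusted p = 0.097). Of the 6 cytosolic or paralogous enzymes (Mdh1, Idh1, Aco1, Acly, Csl and Ogdhl), 5 passed the filter on low counts and 0 were called. With the block, 3 genes of the first list and 2 of the second were higher, against 3.95% of all genes, with Pdhb no longer called. With the length slope, 3.86% of all genes were called higher. In that model 0 of the first list were called, and Dlat was the 1 gene higher in the second, at 0.13 (adjusted p = 0.0218). Idh1 was lower in the third, at -0.24 (adjusted p = 0.0069). The median fitted log2 ratios were 0.07, 0.13 and -0.04 for the 3 lists, against -0.00277 over all genes.

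For time of day, 1 gene of these lists was called, the cytosolic isocitrate dehydrogenase Idh1, lower at ZT15 with a fitted log2 ratio of -0.32 (adjusted p = 0.00462) on average and -0.53 (adjusted p = 0.0887) in sedentary fl/fl mice. In these comparisons 8.02% and 1.88% of all genes were called in either direction. For exercise and for the interactions, 0 genes of these lists were called, against 2.84% of all genes for exercise on average and 0% for the interactions. Between the sexes, the called genes of these lists include Pdha1 at -0.20 (adjusted p = 0.00133), Pdhx at -0.20 (adjusted p = 0.00617), Dlat at -0.10 (adjusted p = 0.0671) and Ogdhl at -0.53 (adjusted p = 0.00978), all lower in females. In the other direction, Pcx at 0.67 (adjusted p = 7.9e-09), Idh1 at 0.41 (adjusted p = 4.38e-05), Acly at 0.39 (adjusted p = 0.00716), Idh2 at 0.30 (adjusted p = 0.0126) and Suclg2 at 0.22 (adjusted p = 3.24e-05) were higher in females. Suclg2 and Sucla2, whose products compete for the α subunit in the ligase, differed in opposite directions between the sexes.

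The genes outside the members whose pattern was most like the mean of the members' centred log2 CPM over 63 libraries were Gfm1, Ldhd, Tufm, Got2, Mfn1, Kcng4, Plekhb2, Ckmt2, Bdh1 and Rnf114, with r from 0.75 for Gfm1 to 0.70 for Rnf114. Each member's own r with that mean, which includes it, lay between 0.29 for Ogdh and 0.67 for Cs. The mean joins both sets of members described above, which mostly varied in opposite directions. Gfm1 and Tufm encode mitochondrial translation elongation factors, Got2 the mitochondrial aspartate aminotransferase, and Ckmt2 the creatine kinase of muscle mitochondria. Ldhd and Bdh1 encode mitochondrial dehydrogenases of D-lactate and 3-hydroxybutyrate. No function is given here for Mfn1, Kcng4, Plekhb2 and Rnf114. These 4 were called higher in HIF1α KO mice, with fitted log2 ratios from 0.09 for Mfn1 to 0.56 for Kcng4, and the others were not called. Between the sexes all but Got2 were called lower in females, from -0.101 for Mfn1 to -1.003 for Kcng4.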

How the data were processed

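Per the labels and the study's methods, poly-A RNA libraries were made with a stranded kit, and the authors aligned reads to mm10 with STAR and counted them with featureCounts. Versions, annotation and strand setting are not given in the sources used here. The deposited values are raw counts per gene, not normalized, filtered or pooled. Identifiers were matched without version to GENCODE M21 on GRCm38, the same assembly as mm10 (55141 of 55401 matched). Groups, sexes and mouse numbers came from the labels.

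The function filterByExpr of edgeR 4.0.16 (R 4.3.3, minimum count 10) chose the genes tested. TMM gave the scaling, and a robust quasi-likelihood model of group plus sex was fitted to 63 libraries, with Benjamini-Hochberg adjustment within each of 23 comparisons. DESeq2 1.42.0, other filters, scalings and covariates were alternatives. The members and lists were chosen with earlier results of these data known. Named were the 9 members, called genes of the pathway lists (with exceptions), the 10 genes most like the members' mean and mitochondrial rRNA. Permutation tests used scipy 1.17.1 and numpy 2.4.6. Scripts were tested on simulated counts. Libraries are separate mice, and CPM precision is limited by totals from 2359780 to 40377963 counts. Promoters came from RefSeq on GRCm38.p6. No protein sequence was used here, and results for some genes of the lists are not reported here.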

Additional observations from a re-analysis of the deposited data

Results flagged for a closer look

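The library of mouse 22, a sedentary fl/fl female at ZT3, stood apart from the other 7 of its group in 2 genes. Its level of Cs was 307 CPM, below the others, which ran from 426 to 483 CPM, and its level of Fh1 was 234 CPM, above the others, which ran from 138 to 183 CPM. The gap to the nearest library, divided by the range of the group, was 0.675 for Cs and 0.529 for Fh1, above Dixon's limit for 8 samples in both. These were 2 of 72 sets of libraries examined, and chance flags about 1 in 20. The same library had a mitochondrial rRNA share of 0.712% and a length slope of -0.17, the lowest of the 63 libraries in both. Without it the genotype difference of Fh1 was 0.22 (adjusted p = 0.00424) and that of Cs -0.02 (adjusted p = 0.843) by edgeR, with the same 5 members called. Between the sexes Cs then did not pass, at -0.11 (adjusted p = 0.109), while Fh1 did, at -0.13 (adjusted p = 0.0694).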

How the results depend on the processing

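The 5 members called in the genotype average were 3 with all 64 libraries, 1 with the length slope, 3 with the length and GC slopes and 0 in females only, and between 4 and 7 under the other alternatives. The 1 call in single combinations became 0 with all 64 libraries, with no sex term, with no filter, at an adjusted p under 0.05, with the block, with mitochondrial rRNA, with the length slope, with both slopes, in females only and in males only. With only the compared groups fitted, the count stayed at 1 but the gene was Idh3b, at 0.30 (adjusted p = 0.0927), not Suclg1. The 4 members lower in females became 2 with all 64 libraries, with at least 10 counts in every library and at an adjusted p under 0.05, and were between 3 and 6 otherwise. The block gave 1 call for time of day in place of 0. Counts for exercise, for single groups and for interactions were 0 throughout, and no named value that was called changed sign. The length slope, both slopes, single sexes and the removal of mouse 22 were chosen after the data had been seen. No paired analysis was possible because each mouse carries its own number from 1 to 64 and the groups share none. In simulated data for the genotype average, a log2 change of 0.25 was recovered by edgeR in 51.5% of 68 genes, and in exercised mice at ZT3 in 10.3%. The changed genes were drawn at random from all genes tested. Counts were drawn for each gene on its own, without differences by sex, block or length slope. The simulation changed 68, 66 and 66 of 15241 genes (log2 changes of 0.25, 0.5 and 1), against 1259 called in the data. The percentages are therefore not the power of these data. The members' mean levels lay between percentiles 97.0 (Fh1) and 99.1 (Cs) of these genes, so recovery at the members' levels was not measured. The members' differences in the genotype average were below a log2 change of 0.25.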
